A study of Mus musculus with 79 samples.

Results

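The cytosolic ribosome is built from ribosomal RNA and a fixed set of proteins of a large and a small subunit. The genes described here are the 77 cytosolic ribosomal protein genes that the name rule found in every table, that is, names starting with Rpl or Rps followed by a number, with an optional a or x form, plus Rplp0, Rplp1, Rplp2 and Rpsa. The large subunit has 46 of them and the small subunit 31. The tables held 23511 gene names for the knockout experiment, 20800 for the drug experiment in fibroblasts and 24346 for the brain experiment. All 77 passed the filter on low values in each experiment, so no member was lost to it. In the GENCODE annotation each of the 77 names is one protein coding locus, and the loci lie on 19 chromosomes.

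Ribosomal protein genes are among the most highly transcribed genes of a growing cell, and their products are made in equal numbers because each ribosome holds one copy of nearly all of them. Their mRNAs mostly begin with a cytosine followed by a run of pyrimidines, the 5′ terminal oligopyrimidine (TOP) motif, through which the kinase mTOR and the RNA-binding protein Larp1 control their translation and stability. Free copies of some members bind Mdm2, the ligase that degrades p53. Circadian control of ribosome production is best known from mouse liver, where it acts largely on TOP mRNA translation.

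The series has 79 mouse RNA sequencing libraries on adenosylhomocysteinase (AHCY), the enzyme that removes S-adenosylhomocysteine, a product and inhibitor of methyl transfer. In the first experiment, mouse embryonic fibroblasts (MEF) of C57BL/6J background made Ahcy-null by CRISPR-Cas9 editing (KO, 18 libraries) were compared with WT fibroblasts (18 libraries) at circadian times (CT) CT12, CT16, CT20, CT24, CT28 and CT32, 3 libraries per group. In the second, MEF of the same background treated with the AHCY inhibitor 3-deazaneplanocin A (DZnep, 6 libraries) were compared with solvent-treated MEF (DMSO, 6 libraries) at CT12 and CT24. The third used the SCN, or suprachiasmatic nucleus, which holds the brain's central clock, punched from C57BL/6 mice aged 10 weeks at CT3, CT9, CT15 and CT21 after infusion of DZnep into the hypothalamus (16 libraries) or of saline (15 libraries, 3 at CT21 and 4 at the other times). All fibroblasts, controls included, received 100 nM dexamethasone for 1 h, which sets the cells to a common phase, and their CT counts the hours after it. Not given in the sources used here are the DZnep dose and whether the KO cells are 1 clone or several. The KO and WT values were read as TPM and the others as FPKM, units that scale each gene's fragments by its length and by the size of the library. The libraries of a group are called biological replicates in the labels without saying what was separate, so p-values measure the spread between these libraries.

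To show how the start regions of the members differ in their pyrimidine run, 30 bases around the longest run near the annotated start are given for 4 members with large falls in KO fibroblasts (Rps26, Rps12, Rps23 and Rpl41) and for Rpl5 and Rps6. RefSeq promoter windows (GRCm38.p6) were matched for 57 of the 77 members, with 67 windows of 300 bases. Capitals mark the longest run of C and T within 20 bases of the start, and each sequence reads 5′ to 3′ on the gene's strand. The windows are at chr10:128626485-128626514 (Rps26, minus strand), chr10:23787182-23787211 (Rps12, minus), chr5:107900497-107900526 (Rpl5, plus), chr4:86857349-86857378 (Rps6, minus), chr13:90923113-90923142 (Rps23, plus) and chr10:128549156-128549185 (Rpl41, minus).
Rps26: aagccgccggaTCCTCTTTCgagtcttggc
Rps12: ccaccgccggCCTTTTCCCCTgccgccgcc
Rpl5: gcctacagccaCTCTTTCTCacgtcgcttg
Rps6: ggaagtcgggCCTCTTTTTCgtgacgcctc
Rps23: ggctgggcggggCTTCCCgcaatgccttgt
Rpl41: gacacacgggccggCTCggaagtgacgaca
The first 4 hold runs of 8 or more bases, with 9 in Rps26, 11 in Rps12, 9 in Rpl5 and 10 in Rps6. Rps23 has a run of 6 and Rpl41 of 3 in these windows. A run of 8 or more within 20 bases of the start, read on the gene's strand, was present in 43.3% of the 67 member windows and in 16.0% of all 32851 windows of the same length. The letters CCGGAAG, the core of an ETS family site, searched on both strands, were present in 37.3% of the member windows and 8.86% of all windows. TATAAA, the TATA box letters, were present in 8.96% of the member windows and 13.6% of all, and CACGTG, the E-box of the clock and of Myc, in 11.9% and 7.15%. These are matches of letters in the annotated windows and not measured sites.

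The labels were checked by Ahcy itself. It had 2.21 TPM at the lowest, 3.18 at the median and 4.74 at the highest in KO fibroblasts, against 131, 180 and 214 TPM in WT fibroblasts (log2 change -5.60, SE 0.04, adjusted p = 3.31e-36, limma). Ahcy mRNA passed no test with DZnep in MEF, at 25.1 ± 5.63 FPKM against 30.6 ± 9.10 FPKM with DMSO (SD, n = 6 each; adjusted p = 0.118, limma). Deposited values summed to 970075 to 980677 TPM per library, to 258374 to 366414 FPKM in the drug-treated and solvent MEF and to 250552 to 322464 FPKM in the SCN. The tables give no reads, so depth and counting error are unknown. Fibroblast markers were present, and their sum moved with the arms, from 7862 to 9694 TPM in KO and 9851 to 13190 TPM in WT (of 11 tested, 4 higher and 7 lower), and from 3005 to 3568 FPKM with DZnep and 4899 to 5947 FPKM with DMSO (1 higher and 7 lower). Macrophage and immune markers summed to 4.94 to 8.14 TPM in KO and 27.9 to 38.7 TPM in WT, and skeletal muscle markers to 5.27 to 7.66 TPM in KO and 3.75 to 669 TPM in WT, where the high values are the CT20 libraries. The KO and WT libraries differed in other genes too. Xist, the RNA that silences one X chromosome, averaged 0.140 ± 0.0619 TPM in KO and 176 ± 24.0 TPM in WT, and Thy1, a surface protein on the fibroblast list, 783 ± 113 TPM in KO and 3.11 ± 0.485 TPM in WT (SD, n = 18 each). Astrocyte markers summed to 17.9 to 27.3 TPM in KO and 154 to 190 TPM in WT (of 3 tested, 2 higher and 1 lower). Gja1 was the gene of that list that fell. The part of these differences in the changes described was not tested. The 14 SCN neuron markers were all present in the SCN, summing to 1086 to 1728 FPKM with DZnep and 1054 to 1744 FPKM with saline. Replicate 2 of DMSO at CT24 stood apart with the highest Malat1 of its experiment, 196 FPKM. Replicate 2 of saline at CT9 stood apart with a macrophage and immune marker sum of 855 FPKM, where the DZnep libraries ranged from 58.9 to 120 FPKM and the lowest saline library had 62.3 FPKM. Counts of members lower, rhythmic or not overlapping are given with and without the library that touches them. An exception is the SCN count of members not overlapping, which is not given without replicate 4 of DZnep at CT15.

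Ribosomal protein mRNAs had a smaller median share of the library sum without AHCY or with its inhibitor in all 3 experiments. In KO fibroblasts the 77 genes held 14.8% of the library sum at the lowest, 15.5% at the median and 16.6% at the highest, against 21.3%, 22.6% and 23.8% in WT fibroblasts. In MEF they held 8.47%, 9.81% and 11.2% with DZnep, against 11.1%, 15.8% and 17.5% with DMSO. In the SCN they held 4.63%, 4.79% and 5.86% with DZnep, against 5.43%, 5.91% and 7.13% with saline. KO and WT libraries did not overlap, and the MEF arms touched only through replicate 2 of DMSO at CT24. The SCN arms overlapped only through replicate 4 of DZnep at CT15, at 5.86%, where the next DZnep library held 5.25%. In such bulk samples, fewer cells of a type and less RNA per cell cannot be told apart.

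**Figure D1:**
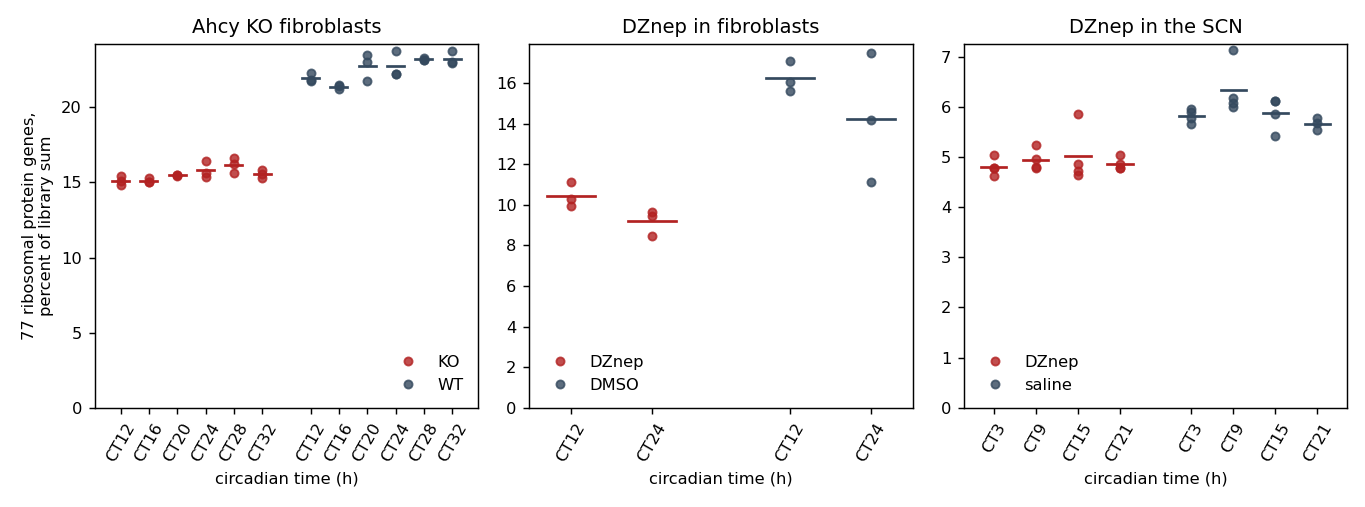
Share of the library sum taken by the 77 ribosomal protein genes (percent, y axis, from 0) in each library by arm and circadian time, with bars at the group means. KO libraries sit between 14.8% and 16.6% and WT libraries between 21.3% and 23.8%. The library of the DMSO arm at 11.1% is replicate 2 of CT24, and the saline library at 7.13% is replicate 2 of CT9. The DZnep library of the SCN at 5.86% is replicate 4 of CT15.

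The comparison of KO with WT asks how loss of AHCY changes expression in fibroblasts across the day. In KO fibroblasts 76 of the 77 genes fell and none rose (adjusted p under 0.05, limma over 13620 genes), namely 45 of 46 large subunit genes and 31 of 31 small subunit genes. Of all genes tested 47.2% were called lower and 42.4% higher, so most genes passed the test in one direction or the other and the count of members lower is to be read against that. The median log2 change was -0.64 over the members and -0.05 over all genes tested. By time, 77, 72, 73, 74, 73 and 73 members fell at CT12, CT16, CT20, CT24, CT28 and CT32 and none rose. Of all genes 38.2%, 39.6%, 40.6%, 39.9%, 40.3% and 40.9% were called lower at these times, and 36.4%, 36.7%, 37.1%, 36.7%, 37.3% and 38.3% higher. On the deposited values, every KO library was below every WT library for 51 of the 77, which was true of 16.9% of all genes tested.

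The size of this fall depends on how libraries are put on one scale. Joint rescaling of the libraries by their median ratio moved KO minus WT changes by -0.22 on the log2 scale, and the changes given are relative to that. With the values as deposited, 69 members were lower and 4 were higher (Rpl11, Rpl12, Rpl34 and Rpl35), with a median of -0.42; over all genes the calls then were 7280 higher and 4857 lower, against 5769 higher and 6430 lower after rescaling. With a common sum over the other genes, 74 were lower and none higher, with a median of -0.54. With quantile normalization, which forces libraries to one distribution and so compresses the highest levels, 44 were lower and 18 higher, with a median of -0.10. There were 43 members called lower under each of the 4 scalings. Shares of all genes are not given for the common sum, quantile normalization or all 4 scalings together. These member counts therefore cannot be set against them.

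The largest falls were in genes of both subunits. Rps26, whose protein lines the mRNA exit channel (gene on the minus strand, chr10:128624534-128626747 in GENCODE on GRCm38), had 1813, 1904 and 2079 TPM (lowest, median, highest) in KO fibroblasts, against 4657, 5059 and 5437 TPM in WT fibroblasts (log2 change -1.61, SE 0.02, adjusted p = 1.88e-32, limma). Rps23, a protein of the decoding centre (plus strand, chr13:90922958-90924950), had 2340, 2434 and 2639 TPM in KO, against 5753, 6344 and 7112 TPM in WT (-1.59, SE 0.02, adjusted p = 6.05e-30, limma). Neither gene overlapped between the arms, and every WT library held more than 2 times the median of the KO libraries. Rpl41, also of the large subunit and coding for a very short peptide, had 3324, 3575 and 3886 TPM in KO, against 7007, 8867 and 9492 TPM in WT (-1.51). Under the other settings the change of Rps26 lay between -1.61 and -1.04, and that of Rpl41 between -1.54 and -0.79. In all, 13 members were called with a log2 change of -1 or lower, or 16.9% of the 77, against 10.8% of all genes tested.

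Members followed in every experiment for their roles fell by intermediate amounts. Rpl3, a large subunit protein next to the peptidyl transferase centre, had 1766, 1891 and 2068 TPM in KO, against 2728, 3159 and 3436 TPM in WT (-0.93, adjusted p = 7.46e-29, limma). Rps6, the substrate of the mTOR-driven S6 kinases, had 1066, 1138 and 1218 TPM in KO, against 1660, 1760 and 1878 TPM in WT (-0.85). Rpl5, which binds Mdm2 when free, changed by -0.81, Rplp0, the base of the stalk that recruits translation factors, by -0.61, and Rpsa, also known as a laminin receptor, by -0.59. Rps3, at the mRNA entry channel, changed by -0.56, and Rps27a, made as a fusion with ubiquitin, by -1.11. All of these were called, and none of them overlapped between the arms on the deposited values. With quantile normalization Rplp0 lost its call (-0.005, adjusted p = 0.805, limma) and Rpsa turned to 0.07 (adjusted p = 2.16e-05, limma). Rplp1, a stalk protein with the highest mean level of the 77, had 4915, 5389 and 6129 TPM in KO, against 5640, 7238 and 8569 TPM in WT, and the arms overlapped (-0.64).

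The smallest changes were in large subunit genes. Rpl34 had 202, 266 and 402 TPM in KO and 169, 228 and 388 TPM in WT, and it was the member of the 77 that did not pass (-0.03, SE 0.08, adjusted p = 0.763, limma). The tables also list Rpl34-ps1, a pseudogene name, at 2208 ± 139 TPM in KO and 2313 ± 202 TPM in WT (SD, n = 18 each), far above Rpl34 itself. Ribosomal protein genes have many near-identical processed copies, so how reads were split between a gene and its copies is uncertain for every member. Rpl11, the partner of Rpl5 in binding Mdm2, had 1740, 1830 and 1954 TPM in KO, against 1469, 1656 and 1736 TPM in WT. On the deposited values each KO library of Rpl11 was above each WT library, while the rescaled change was -0.07 (adjusted p = 0.00209, limma). Its sign therefore turns with the scaling, at 0.15 as deposited, 0.03 with the common sum and 0.47 with quantile normalization. Rpl30, with the lowest mean level of the 77, had 123, 149 and 227 TPM in KO, against 120, 178 and 397 TPM in WT (-0.56, adjusted p = 5.71e-08, limma). Across the 77 genes the change had a Spearman rho of -0.365 with the WT level and of 0.065 with coding length, a description over genes that share the same libraries.

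**Figure D2:**
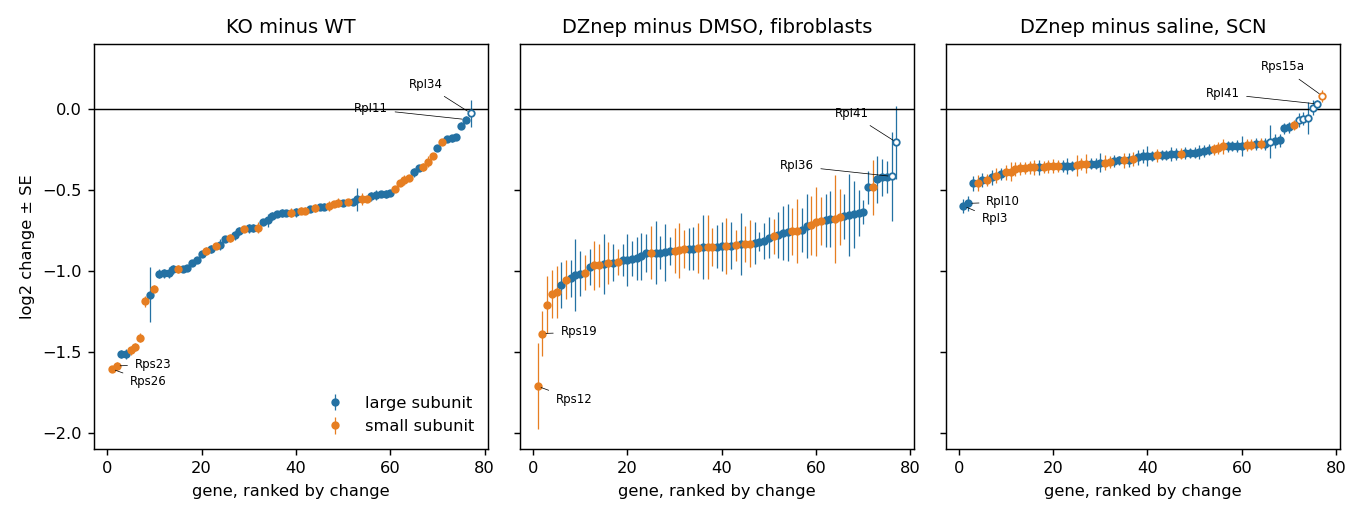
Log2 change (± SE, y axis) of each ribosomal protein gene, ranked along the x axis within each comparison, large subunit genes in blue and small subunit genes in orange, with filled points for genes that passed the test and open points for those that did not. The 3 panels share the y axis, and medians lie at -0.64, -0.85 and -0.29 from left to right.

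In MEF the drug was compared with its solvent. With DZnep 75 of the 77 genes fell and none rose (limma over 10885 genes), 44 of 46 in the large and 31 of 31 in the small subunit, where 32.8% of all genes were called lower and 33% higher. The median log2 change was -0.85 over the members and 0.01 over all genes tested. At CT12 71 members fell, where 25.9% of all genes were called lower and 25.6% higher, and at CT24 64 fell, where 28.8% were lower and 27.8% higher. Every DZnep library was below every DMSO library for 16 of the 77, against 13.6% of all genes tested. That count rests on replicate 2 of DMSO at CT24, since without it 57 of the 77 did not overlap, against 16.2% of all genes. Without that library all 77 fell and the median was -0.96, with 75 lower at CT12 and 76 at CT24. Of the 10885 genes, 3758 were then called lower and 3843 higher, with 3224 lower at CT12 and 3269 at CT24.

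Small subunit genes led this comparison as well. Rps12, a protein of the small subunit head, had 43.8, 92.3 and 122 FPKM with DZnep, against 136, 280 and 395 FPKM with DMSO (-1.71, SE 0.26, adjusted p = 0.000135, limma). Rps19, a gene mutated in Diamond-Blackfan anaemia in humans, had 133, 187 and 265 FPKM with DZnep, against 250, 444 and 722 FPKM with DMSO (-1.39, SE 0.14, adjusted p = 4.56e-06, limma). The arms did not overlap for Rps12 and overlapped for Rps19 through replicate 2 of DMSO at CT24. Rps29 changed by -1.21 and Rps20 by -1.14. Rps12 and Rps29 were also among the deepest falls in KO fibroblasts, at -1.49 and -1.47, whereas Rps19 changed by -0.73 there. In all, 11 members were called with a log2 change of -1 or lower, or 14.3% of the 77, against 2.99% of all genes tested.

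The members followed for their roles all fell. Rpl5 had 135, 151 and 185 FPKM with DZnep, against 202, 297 and 343 FPKM with DMSO, with no overlap (-0.88, adjusted p = 3.09e-06, limma). Rpl3 changed by -0.93, Rplp0 by -0.85, Rps3 by -0.85, Rps27a by -0.84, Rps6 by -0.79 and Rpsa by -1.13, all called. Rpl11, which was higher in KO than in WT on the deposited values, had 31.1, 52.0 and 62.1 FPKM with DZnep, against 38.9, 87.7 and 107 FPKM with DMSO (-0.65, adjusted p = 0.015, limma). Rps27, with the lowest mean level here, changed by -0.89. The 2 members that did not pass were Rpl36 (-0.42, adjusted p = 0.199, limma) and Rpl41. Rpl41, with the highest mean level, had 1542, 2147 and 3188 FPKM with DZnep and 1046, 2924 and 3538 FPKM with DMSO (-0.21, SE 0.23, adjusted p = 0.438, limma). Its lowest DMSO value is replicate 2 of CT24, the arms overlapped, and under the other settings the change lay between -0.41 and 0.34. Rpl34 changed by -0.80 in these cells and Rpl34-ps1 likewise by -0.80.

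In the SCN the drug was given in vivo. Averaged over the 4 times, 70 of the 77 genes fell with DZnep and none rose (limma over 13318 genes), 40 of 46 in the large and 30 of 31 in the small subunit, where 18.3% of all genes were called lower and 16.9% higher. The median log2 change was -0.29 over the members and -0.01 over all genes tested, and no member was called with a log2 change of -1 or lower, against 0.0225% of all genes. For none of the 77 was every DZnep library below every saline library, which held for 0.0751% of all genes tested. Without replicate 2 of saline at CT9 it was also none, where it held for 0.15% of all genes. No such count is given without replicate 4 of DZnep at CT15, which had the highest ribosomal protein share of its arm. For Rpl3, for example, that library held 305 FPKM, where the next DZnep library had 262 FPKM and the lowest saline library 267 FPKM. Most deposited SCN values have decimals of the kind that an average of 4 numbers gives, and since no source explains this, what their spread stands for is uncertain.

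Rpl3 fell most, with 179, 203 and 305 FPKM with DZnep, against 267, 322 and 373 FPKM with saline (-0.60, SE 0.05, adjusted p = 2.94e-10, limma). Rpl10, which completes the peptidyl transferase centre late in assembly, had 123, 139 and 206 FPKM with DZnep, against 185, 215 and 250 FPKM with saline (-0.58, adjusted p = 9.34e-10, limma). For both genes the arms overlapped at their edges. Rpl5 had 74.3, 84.3 and 117 FPKM with DZnep, against 102, 114 and 154 FPKM with saline (-0.46), and Rps23, with the highest mean level, had 520, 601 and 817 FPKM with DZnep, against 765, 813 and 1029 FPKM with saline (-0.46). Rpl11 changed by -0.35, Rps3 by -0.34, Rps6 by -0.33, Rps27a by -0.29, Rplp0 by -0.23 and Rpsa by -0.22, all called. The 7 members that did not pass were Rpl26, Rpl28, Rpl29, Rpl30, Rpl41, Rplp1 and Rps15a. Rpl41 stood at 426 ± 32.2 FPKM with DZnep (n = 16) and 413 ± 33.6 FPKM with saline (n = 15; change 0.03, adjusted p = 0.437, limma), so it failed the test in both drug experiments. Rps15a, with the lowest mean level, had a change of 0.08 (adjusted p = 0.0894, limma).

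By time, 44 members fell at CT3, 69 at CT9, 37 at CT15 and 25 at CT21, with median changes of -0.26, -0.47, -0.24 and -0.24, and none rose. Of all genes 7.28%, 7.52%, 4.67% and 2.28% were called lower at these times and 5.61%, 6.46%, 4.23% and 1.97% higher. The count at CT9 was 66 without replicate 2 of saline at CT9, with a median of -0.37. The counts at the other times rest on single libraries. Without that same library they were 56, 60 and 47 at CT3, CT15 and CT21. At CT3 the count was 25 without replicate 3 of DZnep at CT3. At CT15 it was 23, 16 and 13 without replicate 1, 2 or 3 of DZnep at CT15 and 21 without replicate 4 of saline at CT15. At CT21 it was 3, 7 and 12 without replicate 1, 2 or 3 of saline at CT21, and 12, 10 and 11 without replicate 1, 2 or 4 of DZnep at CT21. With values as deposited the counts at CT3, CT15 and CT21 were 28, 3 and 1. Counts of all genes are not given for these changed settings, so the member counts cannot be set against them. Malat1, a nuclear RNA, moved with the arms too, at 771 ± 112 FPKM with DZnep (n = 16) and 1060 ± 143 FPKM with saline (n = 15; -0.49, adjusted p = 0.000196, limma), and its part in the result was not tested.

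Whether a member that fell much in one experiment fell much in another was described over the 77 genes. KO minus WT changes and DZnep minus DMSO changes had a Pearson r of 0.229 and a Spearman rho of 0.219. For KO minus WT and DZnep minus saline in the SCN they were 0.046 and 0.165, and for the drug in MEF and in the SCN 0.325 and 0.333. The 3 experiments share no libraries, and the same gene lengths and copies enter each of them. Members with and without a pyrimidine run of 8 or more near the start had median changes of -0.62 (28 members) and -0.63 (29 members) in KO, of -0.86 and -0.85 in MEF with DZnep and of -0.28 and -0.31 in the SCN.

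The summed values of the subunits moved toward the large one in fibroblasts. The ratio of the summed large to the summed small subunit values, which does not depend on the scaling of a library, was 1.21 to 1.26 in KO libraries and 1.16 to 1.17 in WT libraries, 1.43 to 1.46 in MEF with DZnep and 1.33 to 1.36 with DMSO, and 1.44 to 1.55 in the SCN with DZnep and 1.40 to 1.47 with saline. The ranges did not overlap in both fibroblast experiments and overlapped in the SCN. Such sums weigh the most abundant genes most. Among these are Rpl41 in MEF, which did not pass the test, and Rps23 and Rps26 in KO, which fell most. The ratio without them is not given, so a shift of a whole subunit is not shown. The mean log2 change was -0.68 for large and -0.77 for small subunit genes in KO, -0.79 and -0.91 in MEF with DZnep, and -0.27 and -0.31 in the SCN. The medians gave the same order in MEF (-0.84 for large, -0.86 for small) and the SCN (-0.28 and -0.34) but not in KO (-0.65 and -0.63), where the deep falls of Rps26, Rps23, Rps12 and Rps29 pull the small subunit mean down. No test was made of this score over the members.

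**Figure D3:**
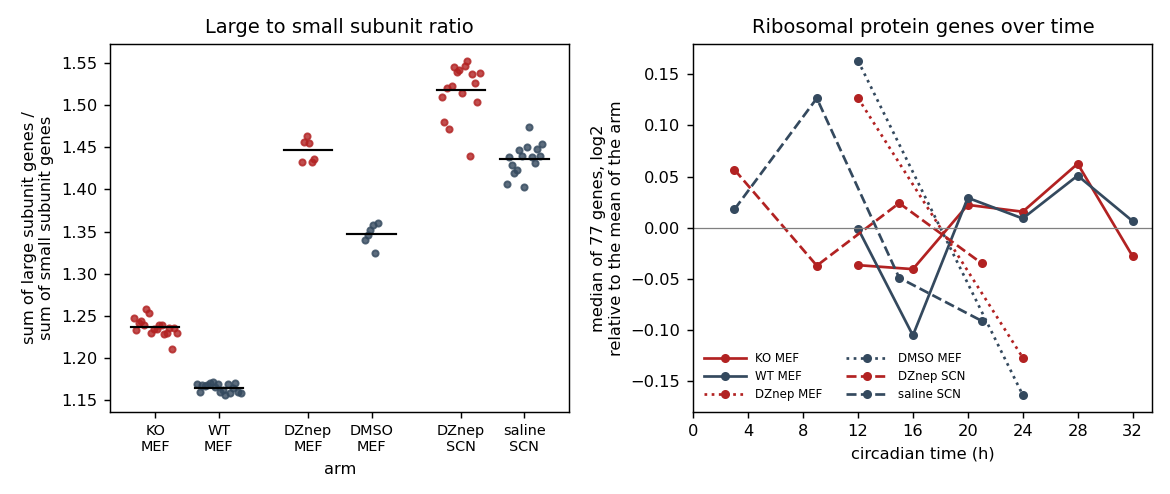
Left, ratio of the summed large to the summed small subunit gene values in each library, with a bar at the mean of each arm. Right, the median over the 77 genes of the group mean at each circadian time, as log2 relative to the mean of the arm. The ratio is higher in KO (1.21 to 1.26) than in WT (1.16 to 1.17). On the right the saline SCN has its maximum at CT9 (0.13), a group in which replicate 2 stood above the other libraries.

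Other genes tied to ribosomes were read from lists chosen with earlier results known. Their counts stand against 42.4% of all genes higher and 47.2% lower in KO, 33% and 32.8% in MEF with DZnep, and 16.9% and 18.3% in the SCN. Of 20 translation factors whose mRNAs carry TOP motifs, 18 fell and 2 rose in KO fibroblasts (median -0.69), 17 fell and none rose in MEF with DZnep (median -0.68), and 15 fell and 1 rose in the SCN (median -0.23). In KO 17 fell as deposited and 16 with quantile normalization. Eef2, the factor that moves the ribosome along the mRNA, averaged 1834 ± 123 TPM in KO and 4664 ± 524 TPM in WT (n = 18 each, -1.56, adjusted p = 6.48e-34, limma) and changed by -0.89 with DZnep in MEF and -0.33 in the SCN. Eif4b, a helper of the mRNA helicase, changed by -1.14, -0.90 and -0.37 in the same order. The members that rose were Eif3a (0.27) and Eef1d (0.06) in KO and Hnrnpa1 (0.16) in the SCN. Among the ribosomal proteins outside the name rule, Fau and Gnb2l1 fell in each experiment.

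The 30 genes of ribosome biogenesis went the other way in fibroblasts. In KO 21 rose and 3 fell (median 0.61), in MEF with DZnep 23 rose and none fell (median 0.49), and in the SCN 4 rose and 4 fell (median -0.01). In KO 29 rose and 1 fell as deposited, 22 rose and 5 fell with quantile normalization and 26 rose and 1 fell with the common sum. These are averages over times. The deposited values of the list summed to 3889 to 3932 TPM in KO and 3019 to 3167 TPM in WT at CT12. At CT32 they summed to 3169 to 3343 TPM in KO and 1508 to 1583 TPM in WT, a wider gap. Counts of this list by time are not given. Nop56, a core protein of the particles that methylate ribosomal RNA, averaged 379 ± 32.7 TPM in KO and 140 ± 45.4 TPM in WT (n = 18 each, 1.28, adjusted p = 1.24e-30, limma), and Grwd1, a chaperone of Rpl3, changed by 1.04. Nop2, a ribosomal RNA methyltransferase, averaged 51.1 ± 16.1 FPKM with DZnep and 24.0 ± 10.2 FPKM with DMSO (n = 6 each, 1.06, adjusted p = 1.92e-08, limma). Among the 3 that fell in KO were Nob1 (-0.27), a nuclease of small subunit maturation, and Pes1 (-0.09), whose sign turned to 0.13 as deposited and 0.01 with the common sum. Of 14 RNA polymerase I genes 9 rose and 4 fell in KO, 8 rose and 4 fell in MEF with DZnep, and 2 rose and 1 fell in the SCN, where the 4 lower in MEF compare with 32.8% of all genes lower; Cd3eap, one of its subunits, rose in each (0.94, 0.87 and 0.31).

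Of 21 regulators of TOP mRNAs and ribosomal protein genes, 13 rose and 8 fell in KO, 10 rose and 1 fell in MEF with DZnep, and 4 rose and 1 fell in the SCN. The 8 lower in KO compare with 47.2% of all genes lower there, and the 4 higher in the SCN with 16.9% higher. Larp1, which binds the TOP motif, rose by 0.51 in KO and 0.40 in MEF with DZnep. Rps6kb1, an S6 kinase gene, changed by -1.13 in KO, and the mTOR inhibitor gene Tsc1 by 0.71. Myc, a driver of ribosome production, changed by 0.38 in KO and 0.93 in MEF with DZnep. Of the ribosomal protein paralogs outside the name rule, 1 of 5 tested rose and 4 fell in KO, 2 of 4 rose and 1 fell in MEF with DZnep, and 1 of 6 rose and 2 fell in the SCN. Rpl22l1, the paralog of Rpl22, averaged 392 ± 26.7 TPM in KO and 1149 ± 107 TPM in WT (n = 18 each, -1.77), while Rpl22 itself changed by -0.18.

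**Figure D4:**
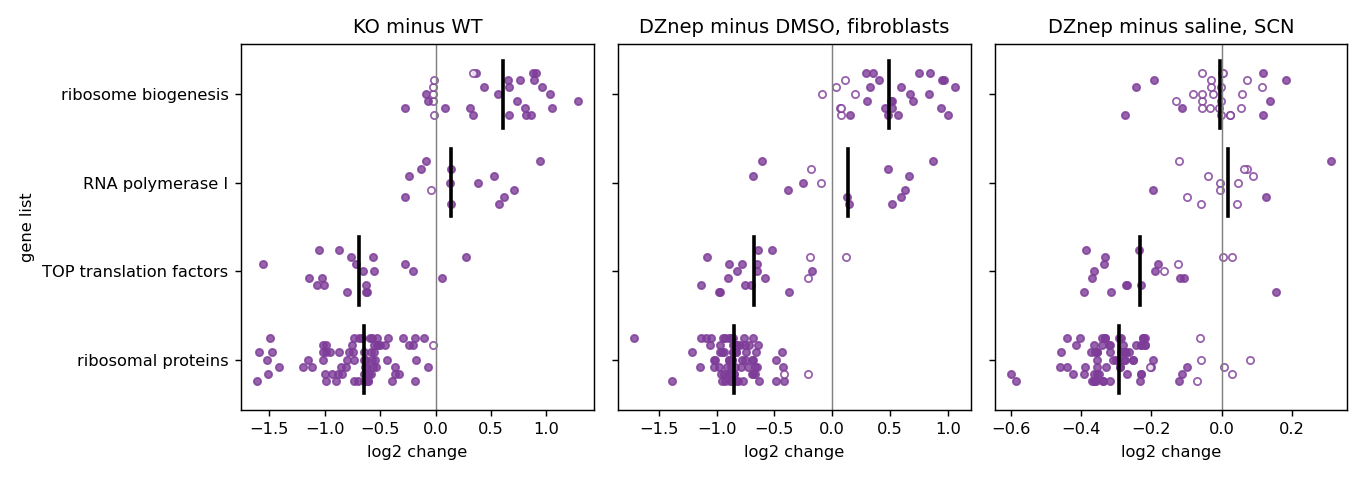
Log2 change (x axis) of each gene of 4 lists, filled where it passed the test, with a black bar at the list median. In KO the medians are 0.61 for ribosome biogenesis, -0.69 for TOP translation factors and -0.64 for the ribosomal proteins. The x axis of the SCN panel is narrower.

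Over time the ribosomal protein genes moved little in KO and WT fibroblasts. A 24 h cosine (amplitude from mean to peak, log2) was called for 6 of the 77 in KO, against 9.86% of all genes, and for 19 in WT, against 36.6% of all genes, and 4 were called in both arms. The median amplitude was 0.05 in KO and 0.06 in WT. The test of the KO minus WT difference in rhythm called none, against 14.4% of all genes; with quantile normalization and with a test of any difference among times it called 4 in each case. In both arms the median of the members was lowest at CT16, at -0.04 in KO and -0.11 in WT relative to the arm's mean, and highest at CT28, at 0.06 in KO and 0.05 in WT. At CT28 71 members in KO and 71 in WT were above their arm's mean. How many of all genes were above it is not given, so these 2 counts cannot be set against that. The counts of members called rhythmic rest on single libraries. In KO the count was 1 without replicate 2 at CT12, replicate 2 or 3 at CT16 or replicate 1 or 2 at CT28, and 2 without replicate 3 at CT24. In WT it was 12, 11 and 10 without replicate 1, 2 or 3 at CT16 and 29 without replicate 1 at CT20. Counts over all 13620 genes moved too, from 1063 to 1530 in KO and from 4249 to 5598 in WT in leave-one-out fits. The times span less than a full day, so a slow trend and a rhythm cannot be told apart.

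Rpl26, Rpl30 and Rpl34 stood apart from the other rhythmic members in WT, with amplitudes of 0.74, 0.44 and 0.38 and peaks at CT14.69, CT13.93 and CT14.3, where the other 16 called members peaked between CT1.26 and CT4.75 with amplitudes of 0.06 to 0.13. Rpl26, which binds p53 mRNA, had 158, 304, 151, 188, 149 and 166 TPM (means at CT12 to CT32) in KO, against 544, 644, 363, 225, 248 and 238 TPM in WT. Its 3 WT libraries held 637, 444 and 552 TPM at CT12 and 424, 1073 and 435 TPM at CT16, so 1 library sets the highest mean, and without it the amplitude was 0.61. Replicate 2 of WT at CT16 also had the highest Malat1 of the KO and WT libraries, 1315 TPM, and its part in this rhythm was not tested. The arms of Rpl26 did not overlap at CT12 or CT16. With a linear trend in time added beside the cosine, the rhythm of Rpl26 and Rpl34 did not pass (adjusted p = 0.356 and 0.155, limma). That of Rpl30 did (0.0378). Rpl30 had 151, 190, 150, 152, 148 and 136 TPM in KO, against 322, 247, 166, 168, 162 and 153 TPM in WT. The arms of Rpl30 did not overlap at CT12 and overlapped at each later time. Rpl34 had 238, 366, 268, 287, 230 and 265 TPM in KO and 294, 330, 213, 208, 187 and 221 TPM in WT, highest at CT16 in both. The SE of the KO minus WT change was 0.17 for Rpl26, 0.07 for Rpl30 and 0.08 for Rpl34, against 0.02 for Rps26, so these libraries scattered more for the 3 genes.

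Rpl3 is an example of the other pattern. It had 1797, 1791, 1837, 1982, 1971 and 1943 TPM in KO (amplitude 0.08, adjusted p = 0.0369, limma), against 2738, 2901, 3217, 3130, 3258 and 3363 TPM in WT (0.10, adjusted p = 0.00165, limma). Levels in both arms ended higher than they began. The largest amplitude called in KO was 0.095, for Rps18.

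**Figure D5:**
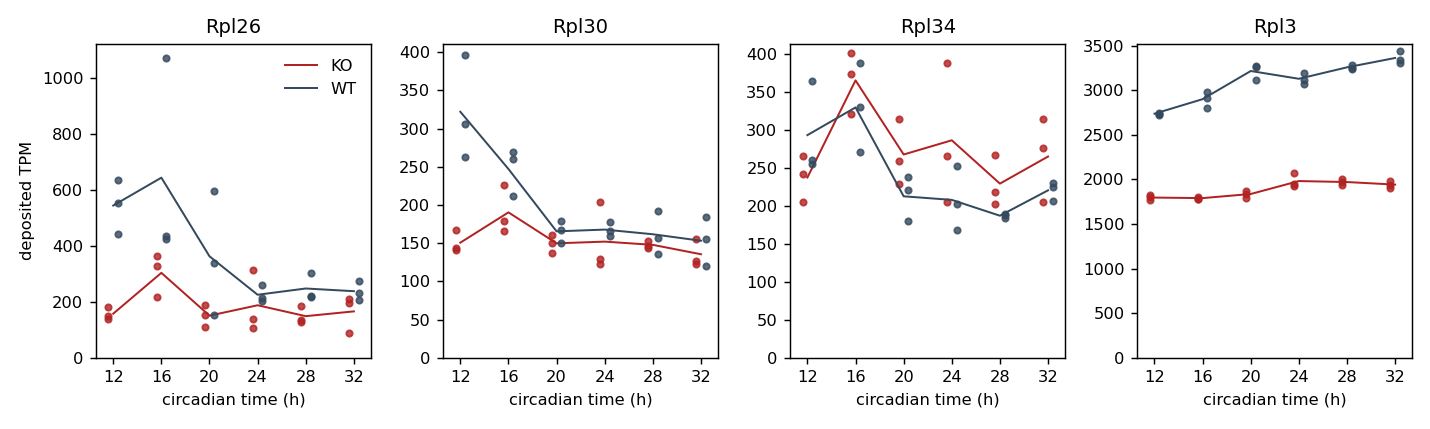
Deposited TPM (y axis, from 0) of Rpl26, Rpl30, Rpl34 and Rpl3 in each KO and WT library by circadian time, with lines through the group means. Rpl26 in WT averages 544 TPM at CT12 and 644 TPM at CT16, against 225 to 363 TPM later, and Rpl3 lies at 1766 to 2068 TPM in KO and 2728 to 3436 TPM in WT.

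In the drug experiment in MEF, CT24 was compared with CT12 within each arm. At CT24, 7 members were lower with DZnep and 8 with DMSO, and none was higher, where 17.8% of all genes were called lower and 19.4% higher with DZnep and 23.9% lower and 26.9% higher with DMSO. The share of members called was below that of all genes in both arms, although the median log2 changes were -0.25 with DZnep and -0.33 with DMSO and 73 and 76 of the 77 estimates were negative. Rps19 held 133, 152 and 140 FPKM at CT24 and 222, 221 and 265 FPKM at CT12 with DZnep (-0.64, adjusted p = 0.0266, limma). With DMSO it held 399, 250 and 425 FPKM at CT24 and 722, 689 and 463 FPKM at CT12 (-0.71, adjusted p = 0.012, limma). The libraries of the 2 times did not overlap in either arm. Also called in both arms were the large subunit genes Rpl14 (-0.51 with DZnep and -0.56 with DMSO), Rpl30 (-0.70 and -0.53) and Rpl37a (-0.51 and -0.49) and the small subunit gene Rps27a (-0.40 and -0.48). Rpl21 and Rpl29 were further called with DZnep, and Rpl35a and Rpl38 were among those further called with DMSO.

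The difference of the changes, DZnep minus DMSO, called none of the 77 (limma), where 2.89% of all genes were lower and 3.21% higher, and 0 members had an unadjusted p under 0.05. The counts within the arms rest on single libraries. Without replicate 2 of DMSO at CT24 they were 27 with DZnep and 3 with DMSO, and without replicate 3 of DMSO at CT24 they were 21 and 68. With DZnep the count was 4, 3 and 1 without replicate 1, 2 or 3 of DZnep at CT12 and 1, 2 and 3 without replicate 1, 2 or 3 of DZnep at CT24. With DMSO it was 4 and 1 without replicate 1 or 2 of DMSO at CT12 and 2 without replicate 1 of DMSO at CT24. Counts over all genes moved too. With DZnep 1328 to 2516 of the 10885 genes were called lower in leave-one-out fits, the most without replicate 3 of DMSO at CT24. For DMSO the counts of all genes in these fits are not given.

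In the SCN, 2 members had a 24 h rhythm with DZnep and 11 with saline, against 10.2% and 18.3% of all genes, and Rpl41 was called in both arms. The test of the DZnep minus saline difference called none, against 0.308% of all genes. With saline the 11 members, 5 of the large and 6 of the small subunit, peaked between CT7.09 and CT8.74. Rps27, a zinc-binding small subunit protein, had the largest amplitude called with saline (0.26, adjusted p = 0.0156, limma), with means of 315, 325, 364 and 299 FPKM at CT3, CT9, CT15 and CT21 with DZnep, against 422, 478, 397 and 336 FPKM with saline. With DZnep 8 members were above the arm's mean at CT9, where the median was -0.04, and 71 at CT3. With saline all 77 were above the arm's mean at CT9, by a median of 0.13, and at CT21 none was. How many of all genes were above their arm's mean at these times is not given. The CT9 height rests largely on replicate 2, whose mean log2 level over the members was 7.80 after rescaling. The other saline libraries of CT9 lay at 7.39 to 7.43, within the 7.36 to 7.46 of the saline libraries at CT3. Without replicate 2 of saline at CT9 only 3 members were called with saline, and the part of that library's immune markers in this result was not tested. The saline count was also 3 without replicate 3 at CT21, and 6 without replicate 1 or 4 at CT3, replicate 1, 2 or 3 at CT15 or replicate 1 or 2 at CT21. It was 20 without replicate 4 at CT9 and 27 without replicate 4 of DZnep at CT15. The DZnep count was 4 without that DZnep library and 1 without replicate 1 at CT3, replicate 4 at CT9, replicate 2 at CT15 or replicate 3 or 4 at CT21. Counts of all genes in these fits are not given, so the member counts cannot be set against them. Rpl30 had the largest amplitude with DZnep (0.38, peak at CT12.43, adjusted p = 0.0339, limma), ranging from 6.98 to 27.8 FPKM over the DZnep libraries.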

How the data were processed

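RNA was sequenced from MEF and SCN punches. The submitters' processing notes name bcl2fastq (2.18.0.12), Trimmomatic (0.36), TopHat2 (2.1.1) and Cufflinks (2.2.1), with mm10 as the genome. No annotation or strand setting is stated. The deposited KO and WT values were read as TPM, and the deposited values of the other experiments as FPKM, both inferred from library sums. Every arm has a deposited file of its own. In the SCN tables, 280 names occurred more than once and were averaged. No 2 libraries held identical values.

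Libraries were rescaled jointly within an experiment by the median ratio over genes whose value reached 1 in all of them. Genes reaching 1 in 3 or more libraries entered the tests as log2(value + 1), which understates changes of low genes, with limma 3.58.1 (trend) in R 4.3.3, Benjamini-Hochberg adjustment over all genes tested and a threshold of 0.05. Levels were compared as the mean of the arm contrast over times, rhythms as the joint F test of 24 h sine and cosine terms, and DZnep and DMSO MEF also as CT24 minus CT12 and the difference of these. Per-library values, means and SD in the text are deposited values without rescaling. The tests were first tried on simulated data.

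The rule for named members took 8 fixed examples, up to 4 called members with the largest change or amplitude per comparison and direction, and those with the highest and lowest mean, and from each list up to 2 called genes per direction with the smallest p. Some genes that meet this rule are not reported here. Members that did not pass are named as well. Rps12, Rps29, Rps19, Rpl34, Rpl22 and Rpl26 are also described where they fall outside this rule, chosen after their values were seen, as are Rpl34-ps1 and the changes of Myc, Eif4b and Eef2 in other experiments. The members, lists and tests were chosen with earlier results of these data known. The settings varied were the pseudocount (0.1) and the scaling (as deposited, quantile normalization, a common sum over the other genes). The filter (none, or a mean of 5 or more) was varied too. Others were any difference among times, a linear trend added to the rhythm terms, no CT20, a replicate block and leaving out each library. Coordinates are GENCODE vM21 and RefSeq on GRCm38.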

Additional observations from a re-analysis of the deposited data

Results flagged for a closer look

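In all, 7 gene or share values stood far from the other 3 libraries of their SCN group, among 70 tests of a value within a group. Chance gives about 1 in 20 for independent tests. These tests reuse the same libraries and genes that move together, so that rate is only a rough guide. At saline CT3, replicate 4 held 138 FPKM of Rplp0, against 112 to 116 in the others, and 236 FPKM of Rps6, against 196 to 200. That library also has the largest sum of the SCN experiment, 322464 FPKM, and a ribosomal protein share of 5.66%, the lowest of its group. At DZnep CT9, replicate 3 held 60.3 FPKM of Rps3, against 52.4 to 53.4, and replicate 1 held 154 FPKM of Rps27a, against 164 to 166. At DZnep CT15, replicate 4 held 185 FPKM of Rpl11, against 150 to 152, and 220 FPKM of Rps6, against 175 to 178. At saline CT9, replicate 2 gave the ribosomal protein genes 7.13% of the library sum, against 6.00% to 6.17% in the others.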

How the results depend on the processing

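Falls in level averaged over times moved little when 1 library was left out; those at single SCN times moved widely, with 25 to 56, 13 to 60 and 3 to 47 members lower at CT3, CT15 and CT21 in leave-one-out fits. KO members lower stayed at 76 when any 1 library was left out, DZnep MEF members lower ranged from 72 to 77 and SCN members lower were 70 throughout. Exceptions by scaling in KO were 4 members higher as deposited, and 44 lower and 18 higher with quantile normalization. In the SCN, 2 members were higher with quantile normalization, 1 without CT9, 1 without saline CT9 replicate 2 and DZnep CT15 replicate 4 together, and 0 to 1 in leave-one-out fits. Signs that turned in KO minus WT were Rpl34 (0.19) and Pes1 (0.13) as deposited and Pes1 (0.0079) with the common sum; Rpl11 at 0.15, 0.031 and 0.47 as deposited, with the common sum and with quantile normalization; and with quantile normalization Rplp1 (0.0151), Rpsa (0.0651), Cx3cr1 (0.0566) and Mbp (0.0619).

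Rhythm counts of members moved widely, and counts of all genes under the settings below are not given here. For KO, WT, DZnep SCN and saline SCN they were 14, 32, 1 and 2 as deposited, and 2, 8, 1 and 5 with no filter. With quantile normalization KO had 16, DZnep SCN 1 and saline 2; with the common sum KO had 16, WT 43 and saline 2. Any difference among times gave 14 in KO, 49 in WT and 3 in saline. The rhythm test with a linear trend added to the model gave 0 in KO and 10 in WT. WT had 40 without CT20, saline 18 with a mean of 5 or more. Settings added after seeing the data gave 3 in KO and 12 in WT without high-Malat1 libraries, and 12 in DZnep SCN without the 2 SCN libraries. Leave-one-out counts were 1 to 7 in KO, 10 to 29 in WT, 1 to 4 in DZnep SCN and 3 to 27 in saline. The KO minus WT rhythm test called 4 with quantile normalization, 4 for any difference and 1 without CT20.

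For CT24 minus CT12, members lower were 4 with DZnep and 5 with DMSO with no filter, 27 and 3 without the high-Malat1 library, and 1 to 27 and 1 to 68 in leave-one-out fits; quantile normalization gave 2 higher in each arm. The difference called 1 lower with quantile normalization, 1 without the high-Malat1 library and 0 to 1 in leave-one-out fits. Its median of 0.07 turned to -0.018 with quantile normalization, -0.16 without the high-Malat1 library and -0.01 to 0.3182 in other leave-one-out fits. The causes were not tested.

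Same-numbered libraries deviated together in 5 of 18 KO, 3 of 6 MEF and 1 of 15 SCN pairs (correlation over 0.1). In the same order, 9, 1 and 1 pairs correlated best with their own number. Weak correlations cannot exclude pairing, so whether the numbers pair the libraries is not known. With a replicate block, members lower were 76, 74 and 70, rhythms 5 in KO, 18 in WT and 5 in saline. Unknown depth limits any statement on low genes.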
